A study of Solanum lycopersicum with 14 samples.

Results

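The 10 genes of light signalling described here were followed through fruit ripening in a red-fruited tomato and a yellow-fruited mutant. They were chosen by identifier, as 10 of the 34674 genes listed in every deposited table: the phytochrome genes PHYA (Solyc10g044670), PHYB1 (Solyc01g059870) and PHYB2 (Solyc05g053410), the phytochrome-interacting factor genes PIF1a (Solyc09g063010), PIF3 (Solyc01g102300) and PIF4 (Solyc07g043580), and HY5 (Solyc08g061130), COP1 (Solyc05g014130), DET1 (Solyc01g056340) and DDB1 (Solyc02g021650). RNA came from the fruit pericarp, the fleshy fruit wall, of greenhouse-grown Solanum lycopersicum. M82 is the wild-type, red-fruited cultivar, sampled at 35, 47 and 54 DPA (the fruit age as labelled, in this field days post anthesis). n3122 is a single yellow-fruited mutant line in the M82 background, sampled at 35, 47, 54 and 60 DPA, and the labels name no mutated gene and no treatment. Each of the 7 groups held 2 libraries, and no label says whether these came from separate plants.

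Phytochromes are receptors of red and far-red light that move to the nucleus when activated. There they lead to the breakdown of the PIF proteins, basic helix-loop-helix transcription factors that hold back light responses in the dark. HY5, a bZIP transcription factor, promotes light-responsive genes, and COP1 is a ubiquitin ligase that targets HY5 for destruction in darkness, as worked out mainly in Arabidopsis. DET1 and DDB1 form a complex with the cullin CUL4 that also represses light responses, and tomato plants mutant in either gene bear deeply pigmented fruit. In tomato fruit PIF1a is known to bind and repress PSY1, the fruit phytoene synthase gene that opens carotenoid synthesis.

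Levels are in FPKM, the fragments assigned to a gene scaled to its length and to library size, so that levels of different genes can be set side by side. The authors deposited 1 FPKM value per gene and group, for both libraries together, so no SD stands beside a level, and whether 2 neighbouring levels differ beyond their spread cannot be said. Depth per library is unknown. FPKM totals per group ran from 1319320 to 1453740 over the genes listed in every table. Calls of higher or lower in n3122 follow the authors' deposited tables, with 0.05 as the largest q-value allowed. Differences between genotypes are log2((n3122 + 1)/(M82 + 1)) of the FPKM, a scale on which changes of low genes come out too small. As markers of ripening pericarp, RIN, TAGL1, PSY1, PG2A and EXP1 summed to 299 FPKM in M82 at 35 DPA, 9686 at 47 DPA and 5690.4 at 54 DPA, and to 263, 268, 385 and 2361 in n3122 at 35, 47, 54 and 60 DPA. The mutant was thus far below M82 in the sum of these ripening transcripts at 47 and 54 DPA, and their part in the results was not tested. At both ages 4 of the 5 were called lower in n3122. TAGL1 did not follow them and was called in no comparison. It stood at 150, 226 and 176 FPKM in M82 with increasing age, and at 146, 144, 150 and 174 in the mutant. The lower sum of M82 at 54 DPA than at 47 DPA was not shared by all 5. PG2A (3598 to 320 FPKM) and PSY1 (4270 to 3034) were lower, whereas RIN (733 to 977) and EXP1 (859 to 1182) were higher. The cuticle genes CD1, CD2 and CER6, which mark the epidermis, summed to 415, 120 and 144 FPKM in M82 with increasing age and to 623, 167, 161 and 194 in the mutant. Of these CD1, a cutin synthase gene, stood at 289, 0.484 and 0.448 FPKM in M82 against 447, 42.0, 18.1 and 5.67 in the mutant. The other 2 did not follow CD1: CD2 stood at 27.8, 29.3 and 29.2 FPKM in M82 against 32.9, 35.7, 49.4 and 52.4 in the mutant, and CER6 at 98.5, 89.7 and 114 against 143, 89.1, 93.6 and 136. None of the 3 was at 0 in any group, and their part in the results was not tested. In RNA from whole pericarp, fewer cells of a type and less RNA per cell cannot be told apart.

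PIF3 and PIF4 were higher and HY5 and PHYB2 lower in the mutant at 47 and 54 DPA, and no light signalling gene was called at 35 DPA. There the count was 0 of 10, against 3.24% of all genes tested. At 47 DPA 5 of 10 were called, against 23.5% of all genes. PIF3, PIF4 and COP1 were higher in n3122, against 13.7% of all genes, and HY5 and PHYB2 lower, against 9.81%. COP1 stands here for Solyc05g014130, whereas the reference gene table places COP1 on another chromosome. At 54 DPA 4 of 10 were called, against 29.7%. PIF3 and PIF4 were higher (18.1% of all genes), and HY5 and PHYB2 lower (11.5%). The oldest mutant fruit, of 60 DPA, were compared with M82 of 47 DPA, here named the comparison across ages, which shares its M82 libraries with the one at 47 DPA. Across ages 2 of 10 were called, against 15%, with PIF3 higher (7.93% of all genes) and HY5 lower (7.07%). With 0.01 as the largest q-value, the calls numbered 0, 3, 3 and 2 at 35, 47 and 54 DPA and across ages, against 1.82%, 15.6%, 20.7% and 8.61% of all genes. With a log2 difference of at least 1 asked for as well as a q-value of 0.05, they numbered 0, 3, 1 and 2, against 1.55%, 17%, 17.5% and 10.7%. All 10 genes were tested in every comparison, and 5 of them (PHYA, PHYB1, PIF1a, DET1 and DDB1) were called in none. The median log2 difference of the 10 genes was 0.01, -0.08, -0.12 and 0.13 in the order given, beside -0.01, 0.01, -0.02 and 0.02 for all genes tested.

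**Figure D1:**
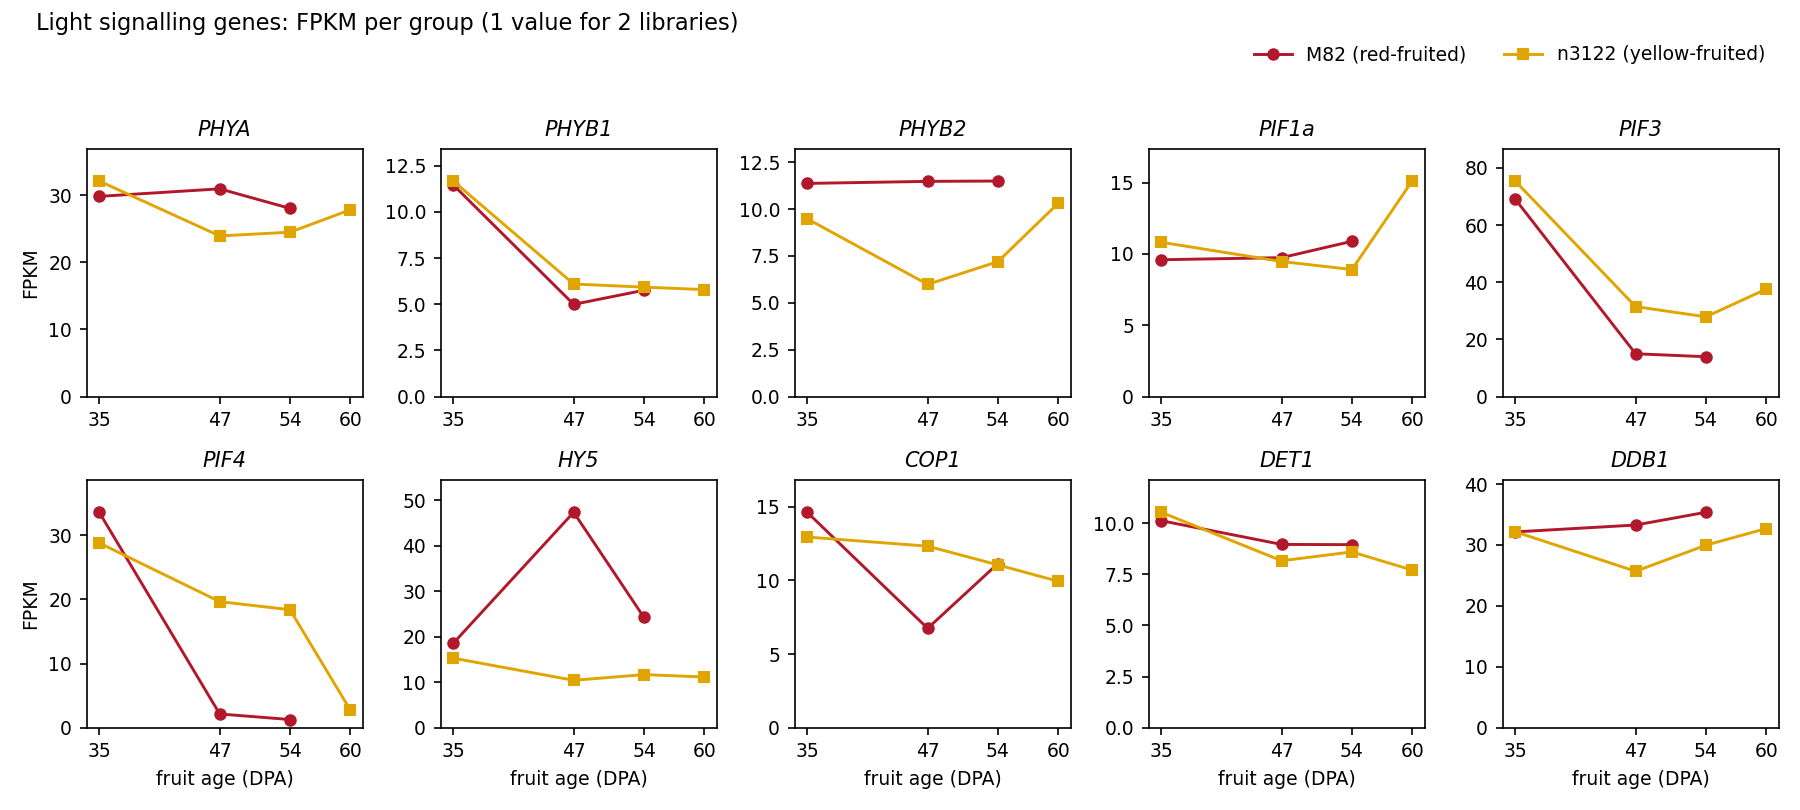
FPKM (vertical axes, from 0) of the 10 light signalling genes against fruit age in DPA (horizontal axes). Each point is the authors' single value for the 2 libraries of a group, with M82 as circles and n3122 as squares, and COP1 is Solyc05g014130. At 47 DPA PIF4 stood at 2.16 FPKM in M82 against 19.6 in n3122, HY5 at 47.3 against 10.4, and the DET1 values all lay between 7.71 and 10.5.

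Of PHYA, PHYB1 and PHYB2, PHYB2 was called, at 47 and 54 DPA, with less than a 2-fold difference. PHYB2 was nearly constant in M82, with 11.4, 11.5 and 11.5 FPKM at the 3 ages, against 9.48, 5.98, 7.20 and 10.3 in the mutant, lowest at 47 DPA. The difference was -0.84 at 47 DPA (q = 0.0122 in the authors' deposited table) and -0.61 at 54 DPA (q = 0.0235 in the authors' deposited table). Neither call held at a q-value of 0.01. PHYB2 was not called at 35 DPA (-0.24) or across ages (-0.09).

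PHYB1, which with PHYB2 makes up the B-type receptors of tomato, was not called in any comparison. It had 11.5, 4.99 and 5.76 FPKM in M82 with increasing age and 11.7, 6.10, 5.93 and 5.79 in the mutant, so every group from 47 DPA on lay well below both groups at 35 DPA. The genotypes differed by 0.02 to 0.24 on the log2 scale. PHYA, the far-red receptor, had 29.8, 30.9 and 28.0 FPKM in M82 with increasing age and 32.1, 23.9, 24.5 and 27.8 in the mutant. Its highest group was 1.33 times its lowest on FPKM + 1, a smaller ratio than in all but 9.03% of the 18352 genes with a mean of at least 1 FPKM. Differences of PHYA ranged from -0.36 at 47 DPA to 0.10 at 35 DPA and were not called.

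PIF4, whose Arabidopsis counterpart drives elongation growth in shade and warmth, differed most of the 10 genes between the genotypes at 47 and 54 DPA. Its level in M82 was 33.6 FPKM at 35 DPA, 2.16 at 47 DPA and 1.29 at 54 DPA. In n3122 it was 28.8, 19.6 and 18.4 FPKM at the same ages and 2.81 at 60 DPA. M82 was thus low from 47 DPA on, whereas n3122 was low only at 60 DPA. The difference at 47 DPA was 2.71 on the log2 scale, 9.10-fold in FPKM (q = 0.000521 in the authors' deposited table), larger than that of 98.5% of the genes tested. At 54 DPA it was 3.08, 14.2-fold in FPKM (q = 0.000377 in the authors' deposited table), and both q-values are the smallest their tables hold. At 35 DPA the difference was -0.21 (q = 0.933 in the authors' deposited table). Across ages it was 0.31 (q = 0.609 in the authors' deposited table), with 2.81 against 2.07 FPKM in that table.

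PIF3, another repressor of light responses, was the highest of the 10 genes at 35 DPA in both genotypes. With increasing age its level was 69.1, 15.0 and 14.0 FPKM in M82, and 75.4, 31.5, 27.9 and 37.6 in the mutant. Both genotypes were thus lower at 47 DPA than at 35 DPA, and n3122 at 47, 54 and 60 DPA lay above both later M82 groups. The differences were 1.02 at 47 DPA (q = 0.00418 in the authors' deposited table) and 0.95 at 54 DPA (q = 0.000377 in the authors' deposited table). Across ages the difference was 1.33 (q = 0.000943 in the authors' deposited table), 2.61-fold in FPKM. At 35 DPA it was 0.12 (q = 0.998 in the authors' deposited table).

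PIF1a, the repressor of PSY1, was not called in any comparison. Its level was 9.60, 9.74 and 10.9 FPKM in M82 and 10.8, 9.47, 8.91 and 15.1 in the mutant. The value of n3122 at 60 DPA was the highest of the 7 groups. The difference across ages was 0.64 (q = 0.119 in the authors' deposited table), and at 47 DPA it was -0.04 (q = 0.948 in the authors' deposited table). PSY1 itself had 143, 4270.2 and 3034 FPKM in M82 with increasing age and 113, 88.0, 129 and 644 in the mutant. PIF1a transcripts ranged from 8.91 to 15.1 FPKM over the same 7 groups, and a part of PIF1a in the PSY1 levels was not tested.

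HY5 was lower in n3122 than in M82 at 47 and 54 DPA, and lower in n3122 at 60 DPA than in M82 at 47 DPA. M82 had 18.6 FPKM at 35 DPA, 47.3 at 47 DPA and 24.3 at 54 DPA. In n3122 HY5 stood at 15.3, 10.4, 11.7 and 11.2 FPKM, so the high value of M82 at 47 DPA had no counterpart at any age sampled in the mutant. The difference at 47 DPA was -2.08, 4.54-fold in FPKM (q = 0.000521 in the authors' deposited table), and 2.30% of the genes tested had a lower one. At 54 DPA it was -0.99 (q = 0.0037 in the authors' deposited table). Across ages the difference was -1.93 (q = 0.000943 in the authors' deposited table), with 1.93% of the genes tested lower. At 35 DPA it was -0.26 (q = 0.946 in the authors' deposited table).

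**Figure D2:**
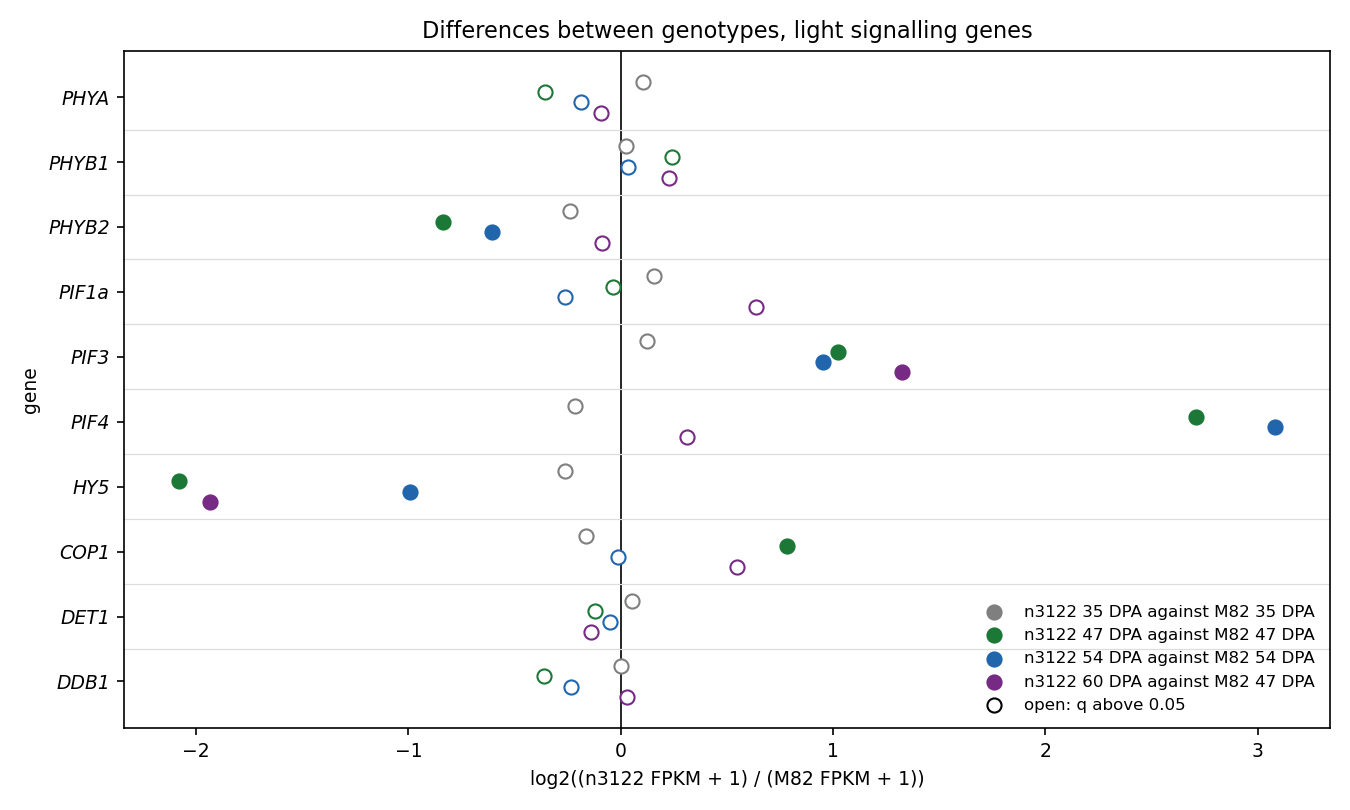
Differences between genotypes for the 10 light signalling genes, as log2((n3122 FPKM + 1)/(M82 FPKM + 1)) on the horizontal axis, with 4 comparisons per gene by colour. Filled points were called with a q-value of at most 0.05 from the authors' deposited tables, and open points were not. PIF4 lies at 2.71 and 3.08 at 47 and 54 DPA, HY5 at -2.08 and -0.99, and every point of 35 DPA lies between -0.26 and 0.16.

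COP1 (Solyc05g014130) was higher in n3122 at 47 DPA only by the authors' test, and the difference between ages was not tested. M82 had 14.6, 6.75 and 11.1 FPKM and n3122 had 12.9, 12.3, 11.1 and 9.94, so M82 at 47 DPA stood apart as the lowest group. The difference there was 0.78 (q = 0.0219 in the authors' deposited table), lost at a q-value of 0.01. At 54 DPA the difference was -0.01 (q = 0.976 in the authors' deposited table), and across ages it was 0.55 (q = 0.157 in the authors' deposited table). The reference gene table gives the symbol COP1 to a gene on chromosome 12, so the name of Solyc05g014130 rests on the choice of members alone.

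DET1 and DDB1 varied little over the 7 groups. DET1 had 10.1, 8.96 and 8.95 FPKM in M82 with increasing age and 10.5, 8.16, 8.59 and 7.71 in the mutant, and its highest group was 1.32 times its lowest on FPKM + 1. DDB1 had 32.1, 33.3 and 35.4 FPKM in M82 with increasing age and 32.2, 25.7, 29.96 and 32.7 in the mutant, a ratio of 1.36. Smaller ratios were found in 8.79% and 11.9% of genes with a mean of at least 1 FPKM. The largest difference of the pair between genotypes was -0.36, for DDB1 at 47 DPA (q = 0.406 in the authors' deposited table). CUL4, the cullin of the same complex, lay between 27.3 and 36.1 FPKM, a ratio of 1.31. The partner DDB1 was 3.06 to 4.24 times as abundant as DET1 in every group.

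The order of levels differed between groups. At 35 DPA the order began with PIF3, PIF4 and DDB1 in M82, and with PIF3, DDB1 and PHYA in n3122. At 47 DPA HY5 came first in M82 and PIF4 last, whereas in n3122 PIF3 came first, HY5 sixth and PHYB2 last. At 54 DPA DDB1 led in both genotypes, at 35.4 and 29.96 FPKM, and PIF4 was again last in M82. In n3122 at 60 DPA PIF3 led at 37.6 FPKM and PIF4 was last at 2.81, as in M82 at 47 and 54 DPA.

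Ratios within a group do not depend on how a table was scaled. At 35 DPA the ratio of HY5 to PIF4 was 0.553 in M82 and 0.532 in the mutant. In M82 it was 21.9 at 47 DPA and 18.8 at 54 DPA, while in n3122 it was 0.531, 0.635 and, at 60 DPA, 3.98. HY5 was thus the more abundant of the pair in M82 from 47 DPA on and in n3122 only at 60 DPA, at a smaller excess. The ratio of PIF3 to PIF4 was 6.94 and 10.8 in M82 at 47 and 54 DPA, against 1.60 and 1.52 in n3122, and 13.4 in n3122 at 60 DPA. These ratios carry no error and were not tested.

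Changes of the 10 genes with age were counted past 2-fold, beside the share of all genes. The limit was set at 1 on the scale of log2(FPKM + 1) after the median of all genes was set to 0. Ages stand in tables scaled separately, and changes with age were not tested. In M82 from 35 to 47 DPA 3 of 10 were past 2-fold, against 22.1% of all genes. HY5 was higher (1.38), against 10.4% of all genes, and PIF4 (-3.38) and PIF3 (-2.06) lower, against 11.7%. PHYB1 (-0.98) and COP1 (-0.94) lay just short of it. The PIF4 value was among the lowest, with 0.651% of 16598 genes below it. In n3122 over the same ages 1 of 10 passed, PIF3 (-1.11), against 11.6% of all genes (7.07% higher and 4.57% lower), and PIF4 stood at -0.40 and HY5 at -0.39. From 47 to 54 DPA none of the 10 passed in M82 or in n3122, against 6.35% of all genes in M82 (2.27% higher and 4.08% lower) and 1.4% in n3122 (0.649% and 0.75%), and HY5 in M82 stood at -0.98. From 54 to 60 DPA in n3122 1 of 10 passed, PIF4 (-2.27), against 7.97% of all genes (2.79% higher and 5.18% lower). PIF1a stood at 0.78 and PHYB2 at 0.54 over this last step, the highest among the 10.

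Of the pathway's other genes, the 9 that matched the reference gene table, 8 photoreceptors and CUL4, gave a wider view of light perception. The rest, among them further PIF genes, were left out, so these 9 include no transcription factor. None of the 9 was called at 35 DPA, against 3.24% of all genes. None was lower in any comparison, against 1.33%, 9.81%, 11.5% and 7.07% of all genes at 35, 47 and 54 DPA and across ages. The mutant was higher for 3 at 47 DPA (13.7% of all genes), for 4 at 54 DPA (18.1%) and for 2 across ages (7.93%). Those called were PHYE, CRY1b and PHOT2 at 47 DPA, the same 3 with CRY-DASH at 54 DPA, and CRY1b and PHOT2 across ages. The median log2 difference of the 9 genes was 0.17, 0.29, 0.03 and 0.33 in the 4 comparisons.

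PHOT2, a phototropin that senses blue light and guides chloroplast movement, varied most of the 9 over the groups. It had 54.4, 0.766 and 0.180 FPKM in M82 with increasing age and 78.0, 20.0, 17.0 and 5.27 in the mutant, so M82 at 47 and 54 DPA lay far below every mutant group. The differences were 3.57 at 47 DPA (q = 0.000521 in the authors' deposited table), 3.93 at 54 DPA (q = 0.000377 in the authors' deposited table) and 1.85 across ages (q = 0.000943 in the authors' deposited table). CRY1b, a cryptochrome and thus a blue-light receptor, had 95.4, 10.7 and 4.70 FPKM in M82 with increasing age and 115, 48.3, 37.5 and 36.8 in the mutant. Its differences were 2.08, 2.76 and 1.75 in the same 3 comparisons, each at the smallest q-value of the authors' deposited table. Its relatives CRY1a and CRY2 were not called, ranging from 22.0 to 39.5 and from 31.8 to 46.7 FPKM over the 7 groups.

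PHYE, a further phytochrome, had 7.70, 2.03 and 1.43 FPKM in M82 with increasing age and 8.80, 5.11, 4.56 and 2.69 in the mutant. Its differences were 1.01 at 47 DPA (q = 0.00178 in the authors' deposited table) and 1.19 at 54 DPA (q = 0.000377 in the authors' deposited table), and it was not called across ages, at 0.33. CRY-DASH, of a cryptochrome-related family known for repair of DNA, was 1.96-fold higher in the mutant at 54 DPA, with 5.87 FPKM there and a log2 difference of 0.78 (q = 0.0192 in the authors' deposited table). PHYF stayed between 5.95 and 8.13 FPKM and PHOT1, the other phototropin, between 107 and 171 FPKM. Neither was called.

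**Figure D3:**
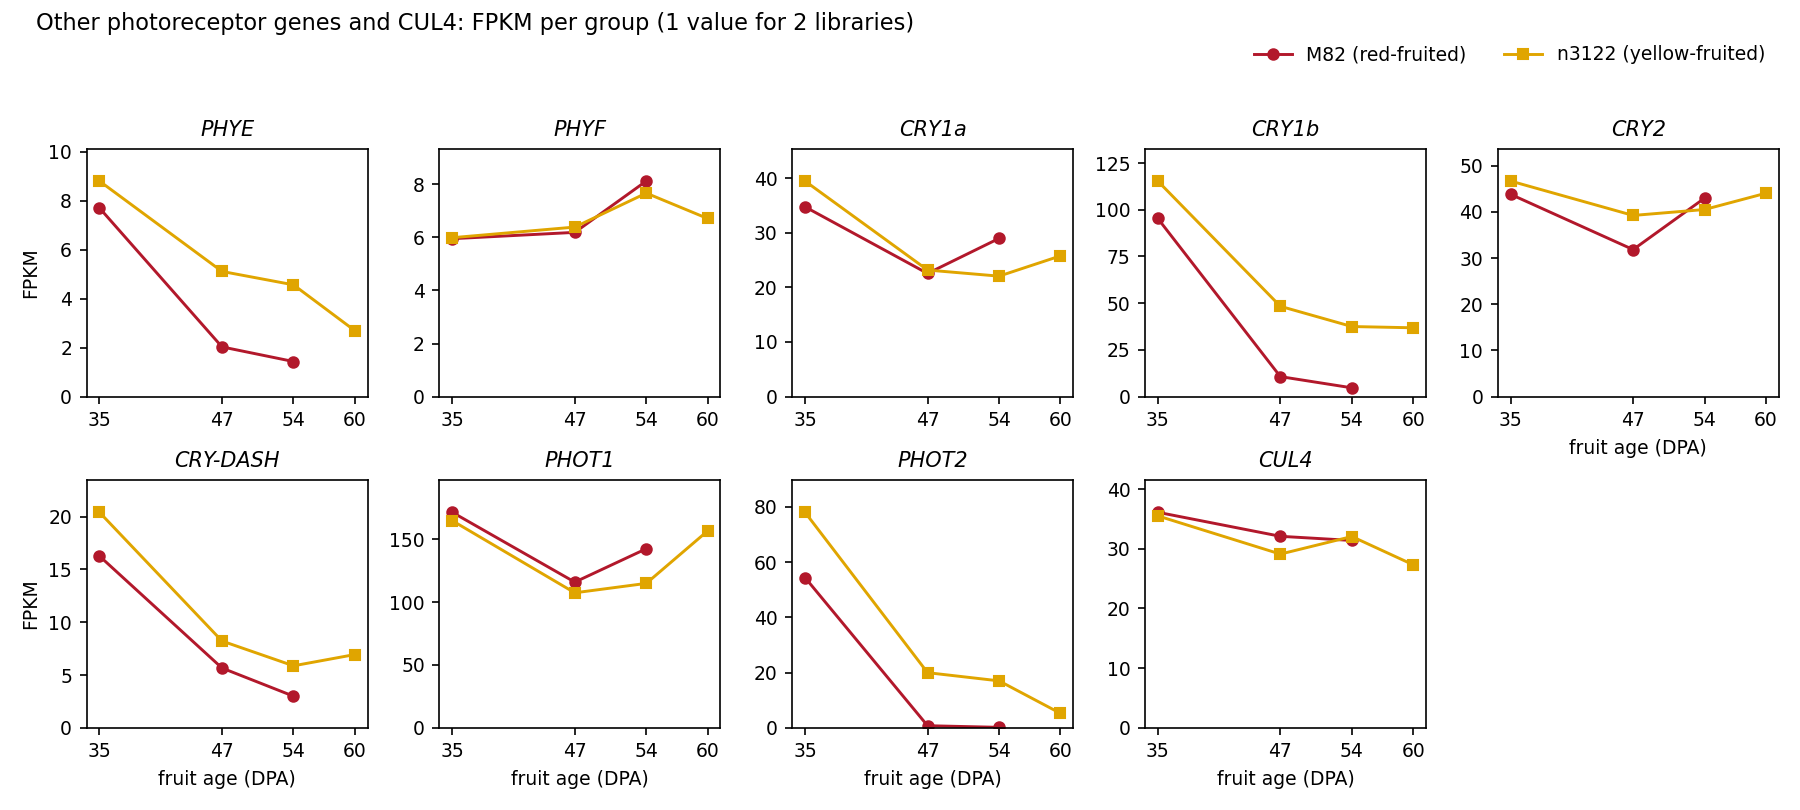
FPKM (vertical axes, from 0) of 8 further photoreceptor genes and CUL4 against fruit age in DPA (horizontal axes), M82 as circles and n3122 as squares, each point the authors' single value for 2 libraries. PHOT2 and CRY1b stood at 0.180 and 4.70 FPKM in M82 at 54 DPA against 17.0 and 37.5 in n3122, while PHYF and CUL4 of both genotypes lay close together.

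PHYA led the phytochrome family in each group. It held 45.0% to 55.6% of the summed FPKM of the 5 phytochrome genes in every group, and that sum ran from 47.5 to 68.0 FPKM. PHYE held 11.6% and 12.9% at 35 DPA in M82 and n3122. At 47 and 54 DPA its share was 3.65% and 2.61% in M82 and 10.8% and 9.15% in n3122, and it was 5.05% in n3122 at 60 DPA. PHYB1 and PHYB2 were about equal in n3122 at 47 DPA, at 12.8% and 12.6%, whereas in M82 at 47 DPA PHYB2 held 20.6% and PHYB1 8.98%. At 35 DPA PHYB1 and PHYB2 held 17.3% and 17.1% in M82, and 17.2% and 13.9% in n3122. At 54 DPA they held 10.5% and 21.0% in M82, and 11.9% and 14.4% in n3122. In n3122 at 60 DPA PHYB1 held 10.9% and PHYB2 19.3%, so PHYB2 held the larger share there too.

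**Figure D4:**
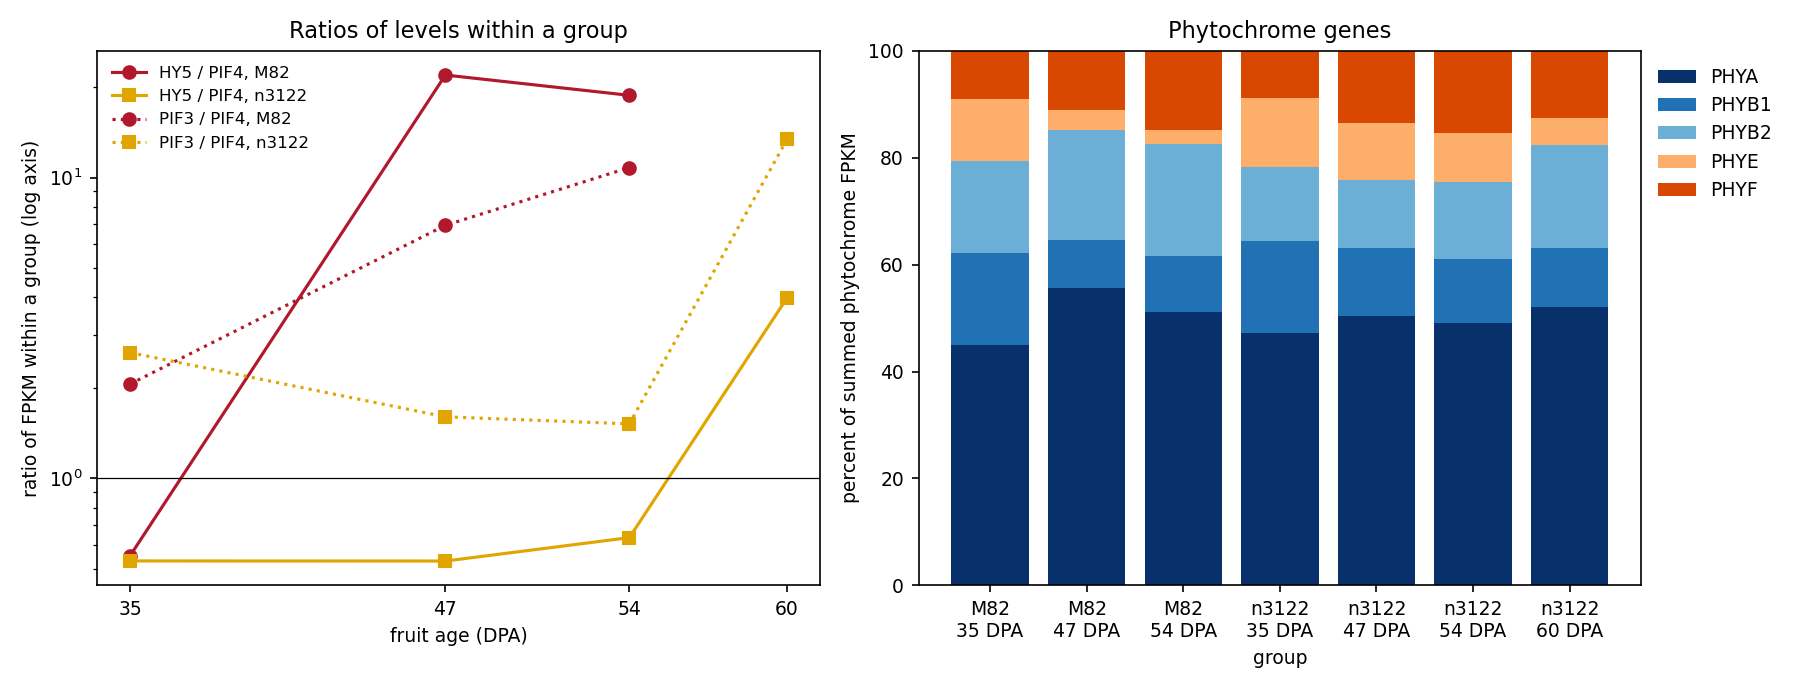
Left, the ratio of HY5 to PIF4 (solid) and of PIF3 to PIF4 (dotted) within a group on a log axis against fruit age in DPA, M82 as circles and n3122 as squares. Right, the percent of the summed phytochrome FPKM held by each of 5 genes in the 7 groups. At 47 DPA HY5 to PIF4 stood at 21.9 in M82 against 0.531 in n3122, and PHYA is the largest share in each bar.

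A set of 6 genes known to respond to light was put beside the 10. PSY1, in this set, is also among the markers of ripening pericarp, so its values serve in both. At 35 DPA 1 was higher in n3122, against 1.91% of all genes (CHS2, a chalcone synthase gene of flavonoid synthesis, 0.66), and none was lower, against 1.33%. At 47 DPA 4 were lower, against 9.81% of all genes, namely PSY1, CHS1, CHS2 and ELIP, an early light-induced protein gene (128 FPKM in M82 and 50.7 in n3122). At 54 DPA 3 were lower, against 11.5%, namely PSY1, CHS1 and CHS2. Across ages 4 were lower, against 7.07%, namely PSY1, CHS1, CHS2 and ELIP. None of the 6 was called higher in these 3 comparisons, against 13.7%, 18.1% and 7.93% of all genes. ELIP, not called at 54 DPA, stood there at 25.3 FPKM in M82 and 42.0 in n3122, a difference of 0.71. CHS1 had 3.37, 339 and 54.8 FPKM in M82 with increasing age and 1.52, 0.195, 0.554 and 27.6 in the mutant. GLK1 and GLK2, regulators of chloroplast development, were not called. GLK1 had 2.87, 0.0496 and 0.0248 FPKM in M82 with increasing age and 3.65, 1.63, 1.22 and 0.731 in the mutant. GLK2 had 9.10, 0.170 and 0.411 FPKM in M82 with increasing age and 18.3, 5.16, 2.52 and 2.16 in the mutant. Their differences at 47 and 54 DPA and across ages were 1.32, 1.11 and 0.73 for GLK1 and 2.40, 1.32 and 1.44 for GLK2. In all of these M82 was below 1 FPKM, and the lack of a call does not mean that levels were equal. At 35 DPA, with M82 above 1 FPKM, the differences were 0.26 for GLK1 and 0.93 for GLK2 (q = 0.0852 for GLK2 in the authors' deposited table).

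Patterns over the 7 groups were set against each other for the 5 genes whose highest group was at least 2 times their lowest on FPKM + 1. As a description over 7 points, 6 of which come in pairs from shared tables, the Pearson correlation of log2(FPKM + 1) of PIF4 was highest with PHYE (0.97) and PHOT2 (0.96) among 24 candidates. PIF3 was closest to CRY1b (0.96) and GLK1 (0.95), and PHYB1 to CRY1a (0.90) and CRY-DASH (0.89). HY5 was closest to CHS1 (0.81) and PSY1 (0.78), and COP1 to CRY2 (0.81) and GLK2 (0.78).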

How the data were processed

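The tools named per the submitters' processing notes are TopHat2 (version 2.0), Cufflinks and CASAVA. The build of the genome is not given in the sources used here, nor is the gene annotation. The authors deposited 4 tables of 34725 genes, each with 1 FPKM value per gene for an n3122 and an M82 group. Each deposited table also holds a test statistic, a score that is 0 for untested genes, and a p-value and q-value per gene. Each deposited q-value equalled the Benjamini-Hochberg adjustment over the genes tested, to within 5.26e-07, and the smallest p-value was 5e-05. M82 at 47 DPA stands in 2 tables, whose FPKM differed by a constant ratio of 0.960. The table with n3122 at 47 DPA was used unless a comparison with 60 DPA is given. Directions come from the FPKM columns.

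Differences, ranks, ratios and correlations were computed from the FPKM (Python 3.11.15, pandas 2.3.3, numpy 2.4.6). A pseudocount of 1 FPKM was used, except for orders, ratios and shares within a group and for folds given in FPKM. Only the code for the Benjamini-Hochberg adjustment and for changes with age was tested on simulated data. Changes with age count genes with at least 1 FPKM at both ages. With no values per replicate, no test of single genes was added, and p-values may measure only technical spread.

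The members, lists and tests were chosen with earlier results of these data known. All 10 members are named in every comparison, and other pathway and target genes where called. Names of listed genes come from knowledge of tomato genetics. Each was checked by symbol against the RefSeq gene table (assembly SLM_r2.1), asking for the same chromosome and a place in its gene order within 10% of its length. Of the members, 6 matched, the 3 PIF symbols are not in that table, and COP1 lay elsewhere. Of 26 other pathway and target genes, 15 matched and 11 were left out. CRY1a, CRY2, PHYF, PHOT1, CUL4, GLK1 and GLK2 are named with values although called in no comparison. They were added after their values were seen, to account for the rest of both lists.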

Additional observations from a re-analysis of the deposited data

How the results depend on the processing

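No paired analysis was possible because the tables hold 1 value per group, and for the same reason no replicate could be left out. The calls among the 10 genes at 47 DPA numbered 3 at a q-value of 0.01, with PHYB2 and COP1 lost, and 3 with a minimum log2 difference of 1, with the same genes lost. With that minimum, 1 call (PIF4) was left at 54 DPA, where HY5 (-0.99) and PIF3 (0.95) lay just short of it and PHYB2 stood at -0.61. Making the FPKM totals equal without the 100 highest genes moved the median of all genes tested to 0.15 at 47 DPA and to 0.18 across ages, and that of the 10 genes to 0.060 and 0.29, and the cause was not tested. Under it PIF4, PIF3 and HY5 at 47 DPA stood at 2.83, 1.17 and -1.93 and PHYB2 at -0.70. Differences that were not called and changed sign were DDB1 at 35 DPA (-0.0025), PIF1a (0.10) and DET1 (0.017) at 47 DPA, COP1 (0.059) and DET1 (0.016) at 54 DPA, and PHYA (0.076), PHYB2 (0.070) and DET1 (0.014) across ages. With the median set to 0, COP1 (0.042) and DET1 (0.00065) changed sign at 54 DPA. Past 2-fold from 35 to 47 DPA in M82 were 5 genes with a pseudocount of 0.1 or with the median not set to 0, since PHYB1 and COP1 lie near the limit, and 1 gene from 47 to 54 DPA with a pseudocount of 0.1. Solyc12g005950, taken as the gene at the place of COP1 in the reference table, was an alternative chosen after seeing the data. Its difference was 0.067 at 35 DPA and 0.45 at 54 DPA, of opposite sign to COP1 and not called. Depth per library is unknown, so no limit from counting is given.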

Other observations

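The reference gene table places COP1 near one end of chromosome 12. Solyc12g005950 was taken as the gene at that place, without the check of place made for the listed genes. This gene was chosen after its values were seen. Its FPKM in M82 was 41.3, 25.1 and 26.9 in order of age, and n3122 stood at 43.4, 33.1, 37.0 and 46.4, so it lay above Solyc05g014130 in every group. Both genes were lowest in M82 at 47 DPA. Its differences between genotypes were 0.07, 0.38 and 0.45 at 35, 47 and 54 DPA, none of them called. In the comparison across ages, of mutant fruit of 60 DPA with M82 fruit of 47 DPA, it was higher, with a difference of 0.91 (q = 0.0157 in the authors' deposited table), whereas Solyc05g014130 was called at 47 DPA and not across ages. Whether these comparisons differ from each other was not tested.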
